A study of Mus musculus with 9 samples.

Results

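The genes described here encode proteins of the extracellular matrix and the enzymes that crosslink or cut it: collagens, laminins, lysyl oxidases, matrix metalloproteases, ADAM and ADAMTS proteases, tissue inhibitors of metalloproteases, and matrix glycoproteins. They were taken by gene name from the 13205 genes that the authors listed for the comparison of TTP-AA with TTP. In all, 43 genes matched, and the set was chosen with earlier results of these data known. The name pattern matched 120 genes in the wider table of 25494 genes with library values, and the other 77 were not listed. These 77 had fitted levels with means between 0.0768 and 8.36 over the 9 libraries, 42 of them under 1, whereas the 43 listed genes reached observed means from 9.08 to 10700. Fn1 and the fibrillins, although part of the name pattern, were not among the listed genes.

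Total RNA depleted of ribosomal RNA was sequenced from macrophages grown from mouse bone marrow. The cells had no tristetraprolin (TTP), the product of Zfp36, had been immortalized with the oncogenes hcmyc and hRasG12V, and were selected for CD11b and F4/80. All 3 groups share this background, and all received doxycycline at 1 µg/ml for 6 h and lipopolysaccharide (LPS) at 1 µg/ml for 1 h. They differ in the transgene that doxycycline induces, which is GFP, GFP-TTP (TTP) or the mutant GFP-TTP-AA (TTP-AA), in which the serines phosphorylated by the kinase MK2 are replaced by alanines. Per the paper, the immortalized cells were transduced with a retrovirus for each construct, and cells positive for GFP were sorted. Each group is thus its own transduced line, and an effect of the transgene cannot be told apart from a difference between lines. Each group had 3 libraries, and neither an untreated sample nor a cell with its own TTP stands beside them. The 3 libraries of a group are thus repeats within its transduced line, and nothing in the labels makes them separate animals. Summed library values ranged from 21482954 in TTP replicate 1 to 102613530 in TTP-AA replicate 3.

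TTP binds AU-rich elements in the 3′UTRs of mRNAs and recruits the machinery that shortens their poly(A) tails, so that the mRNAs decay. LPS activates MK2, and phosphorylation by MK2 weakens this activity of TTP, which the TTP-AA mutant escapes. Macrophages remodel matrix chiefly by secreting proteases such as macrophage elastase (Mmp12) and by shedding surface proteins with ADAM proteases such as Adam17, which releases TNF, whereas collagens, laminins and lysyl oxidases are mainly products of stromal and epithelial cells.

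The deposited library values were not read counts with their scatter. Each value equalled, within 1.2e-14 on the log2 scale, the product of a gene term, a library factor, a term for the replicate number and a term for the group, so the table holds fitted means of the authors' model. Per the paper, that model held library date and condition. The replicate-number term stands in the place of that date, which the labels do not give. This term was the same in every group. The 3 values of a group therefore show how replicate numbers differed and not how far samples of the group varied. For this reason no test of a group difference was possible from these values, and none is given. A difference of at least 1 on the log2 scale is used below as a mark of size. The standard error given beside it is from counting alone. It leaves out variation between samples and is not the error of a fitted difference. The ± between replicate numbers is the SD over the 3 fitted values of a group. Values are fitted levels divided by a library factor (the median of ratios over all listed genes), and they are compared between genes only after division by exon length in kilobases.

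Zfp36 itself was checked first. Its scaled levels were 1744, 1423 and 890 in GFP replicates 1 to 3, 1787, 1447 and 914 in TTP, and 2828, 2298 and 1443 in TTP-AA. TTP and GFP thus lay 0.03 apart on the log2 scale, so that this gene did not separate the libraries of these groups, and TTP-AA lay 0.70 above GFP. Whether the disrupted gene still gives RNA, and whether transgene reads were counted, is not given in the sources used here, and GFP, TTP and TTP-AA mean below the libraries so labelled. Macrophage markers were present as the label says, with all 10 marker genes listed (Adgre1 and Emr1 name the same gene). Their summed levels were 587300 to 807700 in GFP, 490200 to 665800 in TTP and 672800 to 919400 in TTP-AA. Lyz2 made up most of these sums. Of the 10 fibroblast markers 8 had library values and none was listed. Their summed level was between 10.3 and 13.0 in every library, and Col1a1, Col1a2, Dcn and Lum stood at fitted means under 1. Of the 5 epithelial markers 4 had library values and none was listed, with summed levels of 1.78 to 1.84. Among the 6 endothelial markers 4 were listed, led by Vwf at means of 1142, 873 and 1751 in GFP, TTP and TTP-AA. The part of these markers in the differences below was not tested, and in bulk RNA fewer cells of a type and less RNA per cell cannot be told apart.

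Because TTP recognizes the core UAUUUAU of AU-rich elements, the 3′UTRs of the members were searched for TATTTAT, with overlapping matches counted. The 3′UTR taken was that of the transcript with the longest coding sequence in GENCODE release 21 on GRCm38, read on the gene's own strand only. Of the 41 members with an annotated 3′UTR, 13 held the motif (31.7%), against 27.5% of the 11422 listed genes with a 3′UTR. The sites of the members with 3 or more, all of them secreted metalloproteases, are printed here with the single sites of Mmp9 and of Loxl2, the most abundant crosslinking enzyme per exon length in GFP. Capitals mark the motif within 25 bases of reference sequence, written 5′ to 3′ on the strand of the gene.
Mmp13 site 1 (chr9:7282127-7282151, plus strand): aaaagttgtTATTTATctcccagag
Mmp13 site 2 (chr9:7282419-7282443, plus strand): ttattaataTATTTATtttaaaaag
Mmp13 site 3 (chr9:7282458-7282482, plus strand): aataaatcaTATTTATataactgaa
Mmp13 site 4 (chr9:7283282-7283306, plus strand): gttagactgTATTTATgttgtttct
Mmp12 site 1 (chr9:7358366-7358390, plus strand): ttataagtaTATTTATtacatattc
Mmp12 site 2 (chr9:7358749-7358773, plus strand): ctatgtgcaTATTTATgtaccacct
Mmp12 site 3 (chr9:7360340-7360364, plus strand): gaaatgtatTATTTATattaaagtg
Adamts1 site 1 (chr16:85794768-85794792, minus strand): caattcatcTATTTATaaaatgtac
Adamts1 site 2 (chr16:85794292-85794316, minus strand): ataataacaTATTTATttttataca
Adamts1 site 3 (chr16:85794212-85794236, minus strand): aaaatagagTATTTATacaatatat
Adamts4 site 1 (chr1:171259473-171259497, plus strand): ccctagttgTATTTATttggtattt
Adamts4 site 2 (chr1:171259484-171259508, plus strand): tttatttggTATTTATtcattttta
Adamts4 site 3 (chr1:171259761-171259785, plus strand): gaagtttgcTATTTATatgctcttt
Mmp9 site 1 (chr2:164955296-164955320, plus strand): cagccctttTATTTATtatgtatga
Loxl2 site 1 (chr14:69695134-69695158, plus strand): cattttgcaTATTTATatacaatta

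The motif of the first Mmp13 site starts 17 bases after the stop codon in a 3′UTR of 1213 bases, and that of the first Mmp12 site 47 bases after it in one of 2134 bases. The windows of Adamts4 sites 1 and 2 overlap. Lox has 1 site in a 3′UTR of 3160 bases. Of the 6 members that differed by at least 1 on the log2 scale in any comparison, Lox was the one with the motif, and Timp1, Col23a1, Col4a6, Lamb2 and Adam3 had none in 3′UTRs of 103, 3852, 1315, 110 and 178 bases. The 13 members with the motif had a median log2 difference of 0.14 between TTP and GFP. Their medians were 0.09 for TTP-AA over GFP and 0.15 for TTP-AA over TTP. Those for the members with a 3′UTR and no motif were -0.06, 0.13 and 0.19. Over the 3136 listed genes with the motif the medians had the other sign, at -0.03, -0.07 and -0.04. A match to the motif is a description of the sequence and not a binding site.

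Within the set, cell-surface proteases stood highest. Per kilobase of exon, Adam8, a protease of leukocyte surfaces, led in all 3 groups, with scaled levels of 1995 in GFP, 2192 in TTP and 2212 in TTP-AA. Adam10, Adam15 and Adam17, Timp2, the inhibitor that also helps to activate progelatinase A, Adam9 and the basement membrane collagen Col18a1 followed between 810 and 1882 in every group, and their order changed between groups. Lamc1, Adamts1, Mmp19, Mmp12 and Col4a5 lay between 221 and 540 per kilobase. The remaining 31 members were at or below 114 per kilobase in every group, and the lowest were Lama5, Lama3 and Col5a1. In all, 12 members had an observed mean of at least 1000 and 19 had one under 50. Medians of the observed means were 105 for members and 926 for all listed genes.

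**Figure D1:**
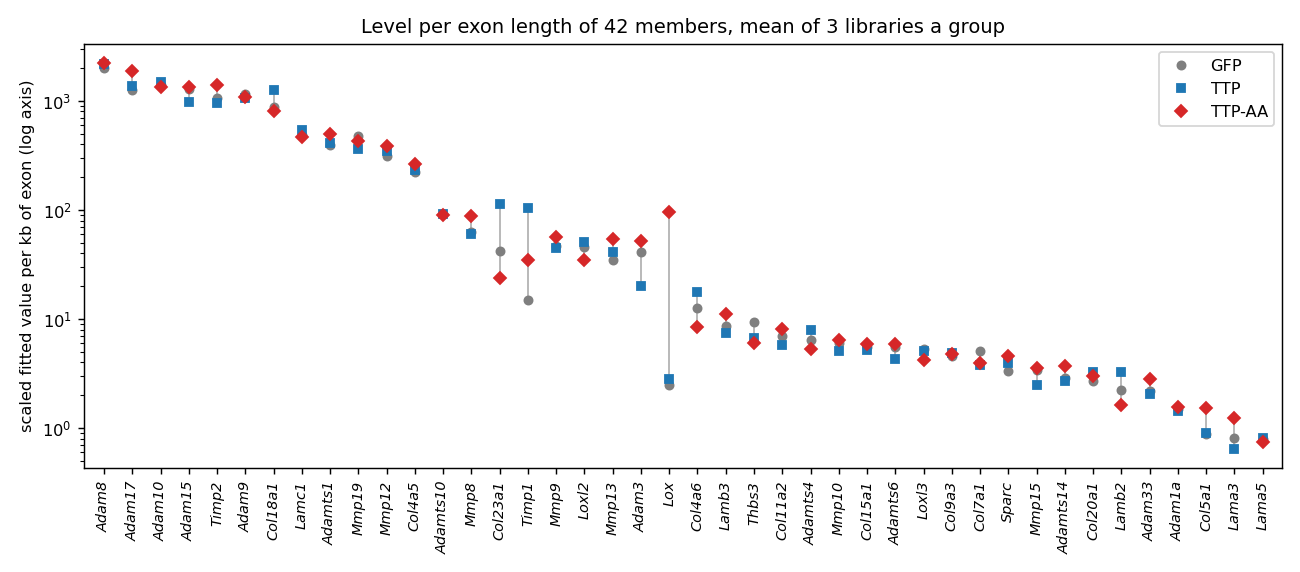
Scaled fitted level per kilobase of exon (log axis) for 42 of the 43 members, ordered from the highest to the lowest, with 1 point for the mean of the 3 libraries of GFP, TTP and TTP-AA. Proteases of the ADAM family, Timp2 and Col18a1 stand at the left, and Lox stretches from 2.51 in GFP to 96.7 in TTP-AA.

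The comparison of TTP with GFP sets the line given TTP beside the line that lacks it, after 1 h of LPS. Timp1 and Col23a1 were higher by at least 1 on the log2 scale and Adam3 was lower, which makes 3 of 43 members, where 1.35% of all listed genes differed by as much. By direction, 2 members were higher, against 0.288% of listed genes, and 1 was lower, against 1.06%. A difference of at least 0.5 was reached by 4 members and 5.17% of listed genes. The median log2 difference was 0.03 over members and 0.00 over all listed genes. The groups did not overlap in 11 members (25.6%), against 19.5% of listed genes. Since the 3 replicate-number terms are the same in each group, the groups fail to overlap exactly when the group difference is larger than the range between replicate numbers. Where groups are said below not to overlap, this holds for fitted values and shows no agreement between separate libraries.

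For the line with the mutant that MK2 cannot inactivate, the same GFP libraries serve as the reference. Lox and Timp1 were higher by at least 1, 2 of 43 members where 1.46% of listed genes differed by that much in either direction and 1.15% were higher. No member was lower by 1, as were 0.31% of listed genes. At 0.5 or more in size there were 10 members, against 8.69% of listed genes. The median was 0.11 over members and 0.00 over listed genes. In 16 members (37.2%) the groups did not overlap, against 24.9% of listed genes.

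The comparison of TTP-AA with TTP sets the line with the mutant beside the line with TTP. Lox and Adam3 were higher in TTP-AA by at least 1, and Col23a1, Timp1, Col4a6 and Lamb2 were lower. These were 6 of 43 members where 3.25% of listed genes differed by that much, 2.65% being higher and 0.598% lower. In no comparison were the listed genes matched to members for level, where median observed means were 926 and 105. Over listed genes, the SD of this difference was 0.36 at means under 20, 0.64 at 100 to 300 and 0.30 at 1000 to 5000. With 0.5 as the mark there were 15 members, against 13.6% of listed genes. The median difference was 0.18 over members and 0.00 over listed genes, with 28 members above 0 and 15 below. The groups did not overlap in 20 members (46.5%), against 30.9% of listed genes.

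**Figure D2:**
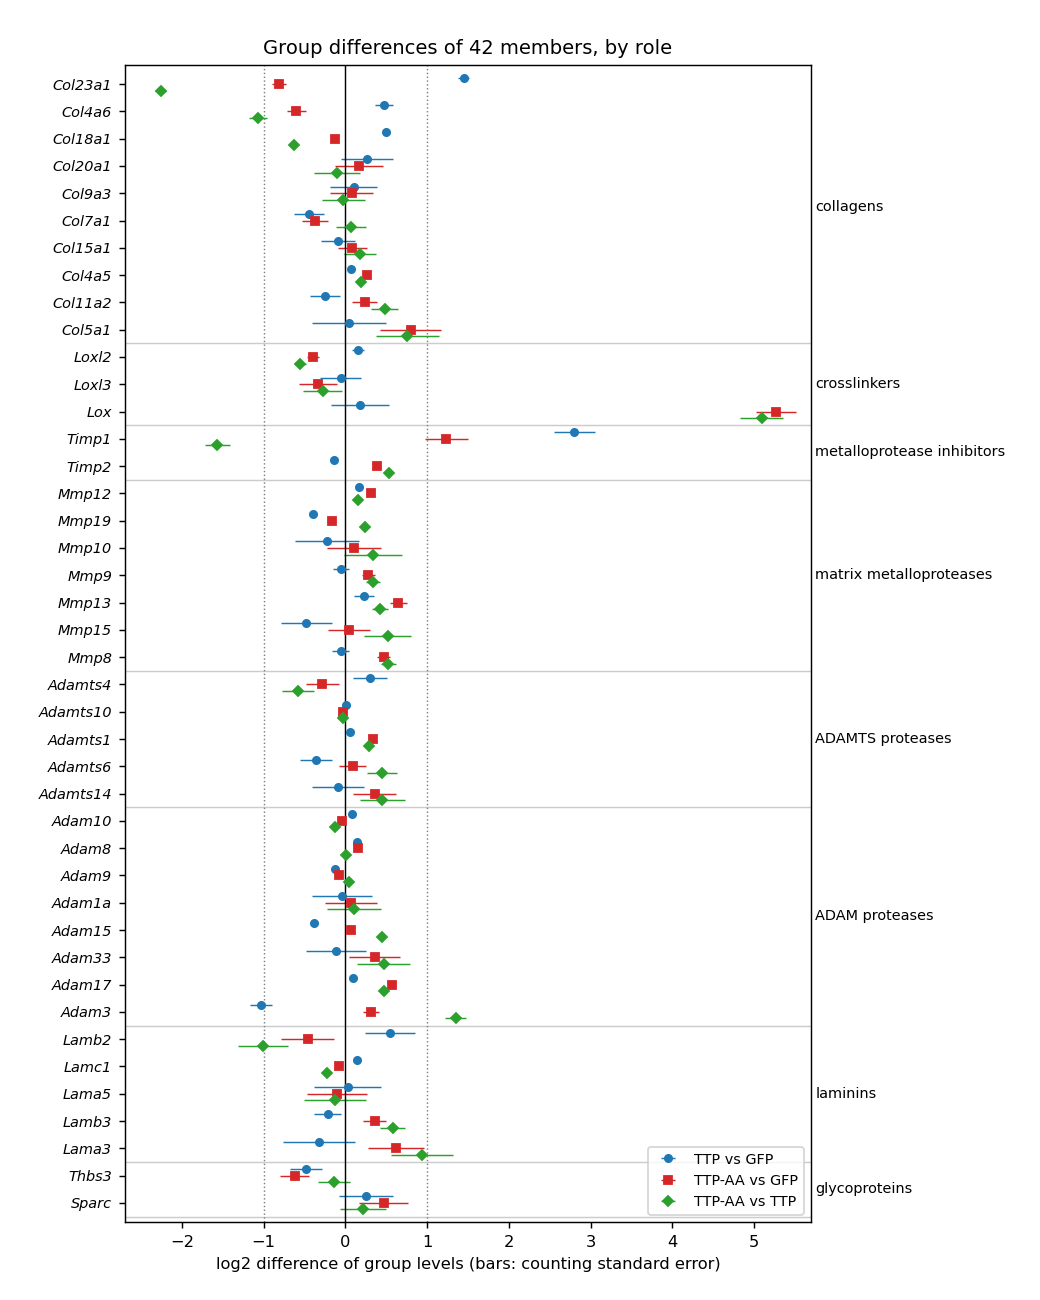
Log2 difference of group levels for 42 of the 43 members, grouped by role, with 1 point a comparison and bars for the counting standard error, which leaves out variation between samples. Dotted lines mark a difference of 1 in either direction. Lox lies past 5 for both comparisons of TTP-AA, and all 7 matrix metalloproteases lie above 0 for TTP-AA vs TTP without reaching 1.

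Among the enzymes that crosslink matrix, Lox stood apart. Lox encodes lysyl oxidase, a secreted copper enzyme that oxidizes lysines of collagen and elastin so that the fibres crosslink, and it lies on chromosome 18 (52516067 to 52529867, minus strand). Its scaled levels were 21.8, 7.99 and 6.14 in GFP replicates 1 to 3, 24.7, 8.96 and 6.95 in TTP, and 842, 307 and 237 in TTP-AA. Every TTP-AA value was thus above every value of the other groups, whereas GFP and TTP overlapped fully. Means were 12.0 ± 8.58 in GFP, 13.5 ± 9.71 in TTP and 462 ± 331 in TTP-AA (SD between replicate numbers, n = 3). TTP-AA was higher than GFP by 5.27 on the log2 scale (38.5-fold, counting SE 0.25) and higher than TTP by 5.09 (34.1-fold, counting SE 0.26), and both were the highest values among the 13205 listed genes. The value for TTP vs GFP was 0.17 with a counting SE of 0.35.

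The Lox values carry 4 limits. With a pseudocount of 10 the differences of TTP-AA were 4.27 from GFP and 4.18 from TTP. Replicate number 1 stood 3.56-fold above replicate number 3 in every group, a range of at least 1 on the log2 scale that 3 of 43 members, Lox and Mmp13 among them, and 4.17% of listed genes reached. The fitted values of Lox averaged 66.5% of the authors' observed mean over the 9 libraries, so that the sequenced libraries held, on average and after scaling, more Lox reads than the fit gives them. Exons of Lox also overlap the antisense gene AC161119.1, and whether reads were counted by strand is not stated.

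The relatives of Lox differed in the other direction. Loxl2 had scaled levels of 208, 272 and 261 in GFP, 233, 302 and 292 in TTP, and 159, 206 and 199 in TTP-AA. Every TTP-AA value was below every value of GFP and of TTP. TTP-AA was lower than TTP by 0.55 on the log2 scale (counting SE 0.072) and lower than GFP by 0.40 (counting SE 0.073). Loxl3 lay at 24.2, 23.0 and 25.8 in GFP, 23.4, 22.0 and 25 in TTP and 19.2, 18.2 and 20.5 in TTP-AA. TTP-AA was again lowest without overlap, with a difference of -0.28 from TTP, about as large as its counting SE of 0.24. Exons of Loxl3 overlap Htra2 and those of Loxl2 a gene named Gm27177, both on the other strand.

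Of the metalloprotease inhibitors, Timp1 and Timp2 were ordered differently over the groups. Timp1 encodes a secreted inhibitor of most matrix metalloproteases and lies on chromosome X (20870166 to 20874735, plus strand) within the span of Syn1, a gene of the other strand, with no shared exon. It had scaled levels of 13.2, 13.0 and 13.6 in GFP, 92.0, 90.2 and 95.3 in TTP, and 31.0, 30.5 and 32 in TTP-AA. The 3 groups did not overlap, with TTP highest and GFP lowest. Timp1 was higher than in GFP by 2.80 in TTP (6.98-fold, counting SE 0.25) and by 1.23 in TTP-AA (2.35-fold, counting SE 0.26), and TTP-AA was lower than TTP by 1.57 (counting SE 0.15). With a pseudocount of 10 the value for TTP vs GFP was 2.14 and that for TTP-AA vs GFP 0.82, below 1. The fitted values averaged 78.9% of its observed mean of 57.8.

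Timp2 was lowest in TTP and highest in TTP-AA. Its levels were 4702, 4276 and 3483 in GFP, 4260, 3845 and 3160 in TTP and 6159, 5577 and 4560 in TTP-AA. TTP-AA lay above TTP without overlap, by 0.53 (counting SE 0.017), and above GFP by 0.39 with overlapping ranges. TTP and GFP were 0.15 apart and overlapped. Per kilobase of exon, Timp2 exceeded Timp1 in each group, from 964 against 104 in TTP to 1066 against 14.9 in GFP.

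**Figure D3:**
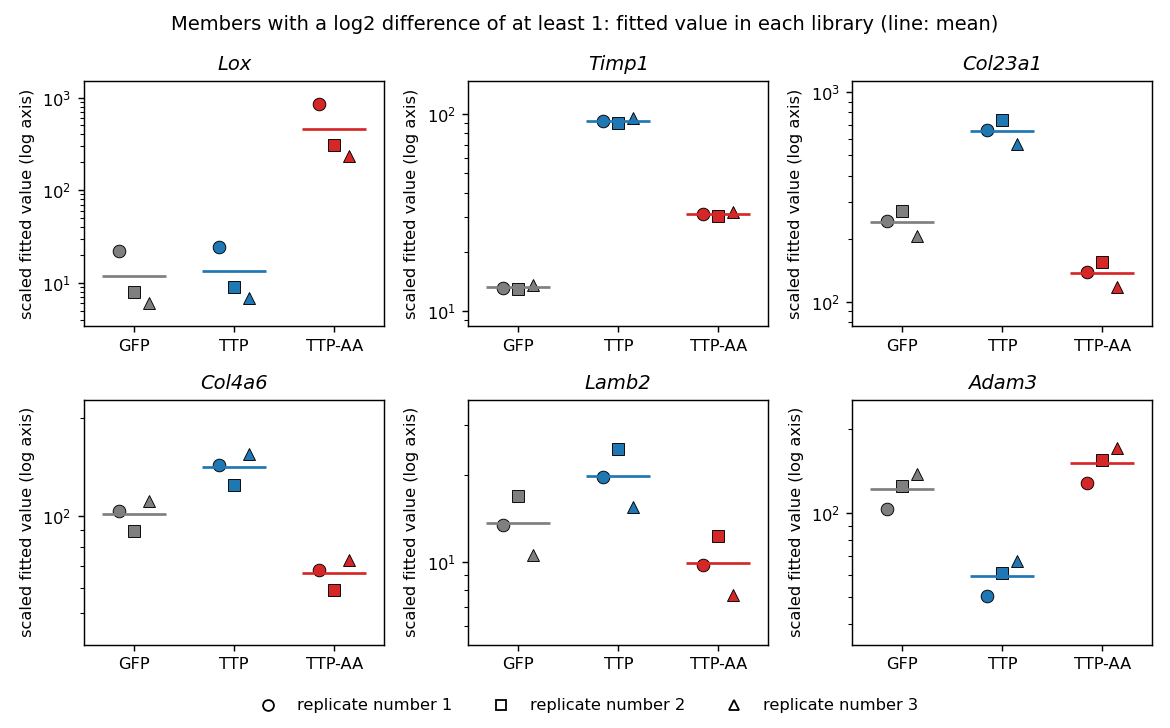
Scaled fitted value in each library (log axis) for the 6 members with a log2 difference of at least 1 in any comparison, with circles, squares and triangles for replicate numbers 1, 2 and 3 and a line for the group mean. The pattern of the 3 symbols is the same in each group, as the fit makes it. Lox is high in TTP-AA alone, Timp1 highest in TTP, Col23a1, Col4a6 and Lamb2 highest in TTP and lowest in TTP-AA, and Adam3 lowest in TTP.

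The collagens were divided, with 5 of 10 above 0 and 5 below for TTP-AA vs TTP and a median of 0.02. Col23a1 encodes a transmembrane collagen whose outer part can be shed, and lies on chromosome 11 (51289920 to 51583918, plus strand). Its levels were 243, 272 and 206 in GFP, 663, 736 and 565 in TTP, and 138, 154 and 118 in TTP-AA. The 3 groups did not overlap. TTP was higher than GFP by 1.45 (2.73-fold, counting SE 0.065), while TTP-AA was 0.81 below GFP (1.76-fold, counting SE 0.082) and 2.26 below TTP (4.79-fold, counting SE 0.070).

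Col4a6 encodes a chain of type IV collagen, the network-forming collagen of basement membranes, and lies on chromosome X (141165403 to 141474076, minus strand). It was ordered as Col23a1 was, with 103, 89.7 and 111 in GFP, 144, 124 and 155 in TTP, and 68.1, 59.0 and 73.2 in TTP-AA. The groups again did not overlap. TTP-AA was lower than TTP by 1.07 (2.11-fold, counting SE 0.11) and lower than GFP by 0.60, and TTP was higher than GFP by 0.47. The first value was -0.97 with a pseudocount of 10.

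Col4a5, another chain of type IV collagen, lies on the opposite strand with a gap of 1308 bases to Col4a6, and it did not follow its neighbour. Its levels were 1523, 1454 and 1470 in GFP, 1604, 1519 and 1550 in TTP and 1834, 1744 and 1769 in TTP-AA. TTP-AA was highest without overlap, by 0.27 over GFP (counting SE 0.027) and by 0.19 over TTP (counting SE 0.028). In TTP-AA, Col4a5 thus lay at 265 and Col4a6 at 8.38 per kilobase of exon.

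Col18a1, the source of the fragment endostatin, had levels of 5650, 6929 and 6015 in GFP, 8007, 9745 and 8536 in TTP and 5194, 6342 and 5526 in TTP-AA. TTP was above both other groups without overlap, and GFP and TTP-AA overlapped. TTP was higher than GFP by 0.50 (counting SE 0.014), and TTP-AA was lower than TTP by 0.62 (counting SE 0.013). With chromosome 10 centred on its median, these differences were wider, at 0.63 and -0.78.

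The other 6 collagens, which no rule singled out, had observed means of 11.9 to 48.2. Col5a1, a chain of a fibril-regulating collagen, had a TTP-AA level 0.76 above that of TTP (counting SE 0.38), at values of 5.08 to 9.01 in GFP and TTP and 8.86 to 15.2 in TTP-AA. Col11a2 had a TTP-AA level 0.48 above that of TTP (counting SE 0.17) without overlap. Col7a1, the anchoring fibril collagen of skin, was lower than in GFP by 0.44 in TTP and by 0.38 in TTP-AA, with counting SEs of 0.19 and 0.16. Differences of Col9a3, Col15a1 and Col20a1 were within 0.26 in size in all comparisons, each smaller than its counting SE.

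The matrix metalloproteases lay on 1 side when the mutant was set against TTP. All 7 had a higher level in TTP-AA, by 0.15 to 0.53, with a median of 0.34, and none reached 1. Among all listed genes, 6600 were above 0 and 6605 below. The macrophage markers lay on the same side by about as much, 10 of 10 above 0 with a median of 0.31 and values from 0.10 for Cd68 to 1.44 for Emr1 (F4/80), and so did the 4 listed endothelial markers with a median of 0.63. The part of these shifts in the values of the proteases was not tested. Against GFP, 6 of 7 lay above 0 in TTP-AA and 2 of 7 in TTP. The groups TTP-AA and TTP did not overlap in 3 of the 7, Mmp9, Mmp12 and Mmp15, against 30.9% of listed genes.

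Mmp12, the macrophage elastase, had levels of 2262, 2201 and 2274 in GFP, 2535, 2449 and 2552 in TTP and 2817, 2730 and 2830 in TTP-AA. GFP was lowest and TTP-AA highest, and the groups did not overlap. TTP-AA lay 0.31 above GFP (counting SE 0.022) and 0.15 above TTP (counting SE 0.022). Exons of Mmp12 overlap Mmp1b on the other strand.

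Mmp19, a protease with substrates in basement membranes, was lowest in TTP. It had 1762, 1811 and 1460 in GFP, 1342, 1369 and 1114 in TTP and 1578, 1614 and 1307 in TTP-AA. TTP was lower than GFP by 0.40 without overlap (counting SE 0.032), and TTP-AA was between them. With chromosome 10 centred on its median, TTP differed from GFP by -0.26. Its exons overlap those of Tmem198b on the other strand.

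The collagenases and gelatinase were less abundant and are named after their values were seen. Mmp13, the collagenase with 4 copies of the motif, ranged from 47.8 to 165 in GFP, from 56.1 to 194 in TTP and from 75.0 to 259 in TTP-AA. Replicate number 3 was 3.46-fold above replicate number 1, and its difference of 0.42 between TTP-AA and TTP was smaller than that range. Mmp8, the neutrophil collagenase, had a TTP-AA level 0.53 above that of TTP (counting SE 0.089), at 180 to 264 against 125 to 184, and the fit held 78.6% of its observed mean. Mmp9, a gelatinase of leukocytes, had a TTP-AA level 0.34 above that of TTP (counting SE 0.084), at 180 to 224 against 142 to 177. Mmp10 and Mmp15 had observed means under 20 and differed between these groups by 0.33 and 0.52, with counting SEs of 0.35 and 0.29. Mmp13, Mmp12, Mmp10 and Mmp8 lie in this order on chromosome 9, with gaps of 61.0, 133 and 48.2 kb between them.

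The ADAM family holds membrane proteins, several of which shed other surface proteins. Of its 8 members here, 7 had a higher level in TTP-AA than in TTP, the median difference being 0.28. As for the matrix metalloproteases, this stands beside 6600 of 13205 listed genes and 10 of 10 macrophage markers above 0, the latter with a median of 0.31. Adam17, which releases TNF from the cell surface, had levels of 8414, 8059 and 10710 in GFP, 9026, 8581 and 11500 in TTP and 12520, 11940 and 15920 in TTP-AA. TTP-AA was highest without overlap. TTP-AA was higher than GFP by 0.57 and higher than TTP by 0.47, each with a counting SE of 0.011. These differences were 0.416 and 0.375 with chromosome 12 centred on its median. Exons of Adam17 overlap those of Iah1 on the other strand.

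Adam8 had levels of 6717 to 12510 in GFP, 7411 to 13680 in TTP and 7457 to 13830 in TTP-AA. The groups overlapped, with differences of 0.14 and 0.15 of TTP and TTP-AA from GFP and of 0.01 between them. Adam10, the sheddase of Notch and of many other receptors, and Adam9 stayed within 0.12 in size in every comparison. Adam15 was lower in TTP than in GFP by 0.38, and its TTP-AA level exceeded that of TTP by 0.45, with overlapping groups at 4605 to 9927. With chromosome 3 centred on its median, these differences were -0.19 and 0.35.

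Adam3, a member known from sperm and encoded on chromosome 8 (24677225 to 24725852, minus strand), was lowest in TTP. It had 103, 125 and 137 in GFP, 50.4, 60.7 and 67.3 in TTP, and 128, 155 and 171 in TTP-AA. TTP lay below both other groups without overlap, and GFP and TTP-AA overlapped. TTP was lower than GFP by 1.03 (2.05-fold, counting SE 0.14; -0.92 with a pseudocount of 10), and TTP-AA was higher than TTP by 1.35 (2.55-fold, counting SE 0.13). Its exons overlap Gm45528 on the other strand. Adam9, 224 kb away on the same strand, differed by -0.12 and 0.05 in these comparisons. Adam33 and Adam1a had observed means of 13.3 and 11.0 and differences smaller than 1.5 counting SEs.

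Of the ADAMTS proteases, secreted enzymes that cut proteoglycans and procollagens, 3 of 5 lay higher in TTP-AA than in TTP and 2 lay lower. Adamts1, with 3 copies of the motif, had 2141, 1948 and 2171 in GFP, 2223, 2008 and 2257 in TTP and 2714, 2460 and 2751 in TTP-AA. TTP-AA was highest without overlap, by 0.34 over GFP and 0.29 over TTP, each with a counting SE of 0.023. These differences were 0.22 and 0.16 with chromosome 16 centred on its median. Adamts10, which binds fibrillin, stayed within 0.04 in size in all comparisons, at 635 to 866.

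Adamts4, an aggrecanase that also has 3 copies, lay on the other side of 0 from Adamts1, with 19.2 to 30.2 in TTP-AA against 28.8 to 45.2 in TTP. The difference was -0.58 with a counting SE of 0.19, and the groups overlapped. Adamts6 and Adamts14 were both 0.45 higher in TTP-AA than in TTP, with counting SEs of 0.18 and 0.27.

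The laminins, heterotrimers of basement membranes, were divided as the collagens were, with 3 above 0 and 3 below for TTP-AA vs TTP. Lamc1, the most abundant of them per kilobase, had 3968, 3318 and 4831 in GFP, 4393, 3645 and 5355 in TTP and 3766, 3135 and 4582 in TTP-AA. The groups overlapped, and its differences were 0.14 for TTP and -0.08 for TTP-AA against GFP, and -0.22 between TTP-AA and TTP.

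Lamb2 encodes the laminin chain of synapses and kidney filters and lies on chromosome 9 (108479736 to 108490530, plus strand). Its levels were 13.4, 17.0 and 10.6 in GFP, 19.7, 24.8 and 15.5 in TTP, and 9.77, 12.3 and 7.67 in TTP-AA. TTP-AA lay below TTP without overlap, and GFP overlapped both. TTP-AA was lower than TTP by 1.01 (2.02-fold, counting SE 0.30), and this value fell below 1 in size under other settings, at -0.99 with upper quartile scaling and with each chromosome centred on its median, and at -0.59 with a pseudocount of 10. The fit held 84.7% of its observed mean of 17.2. Lama3 and Lamb3, which join in the same laminin trimer, exceeded TTP in TTP-AA by 0.94 (counting SE 0.38) and 0.58 (counting SE 0.15). Lama3 was at 14.6 or less in every library. Lama5 was within 0.13 in size in all comparisons.

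The 2 matrix glycoproteins were sparse. Thbs3, a thrombospondin, had 37.8, 49.5 and 47.7 in GFP, 27.1, 35.2 and 34.2 in TTP and 24.6, 32.1 and 31.0 in TTP-AA. GFP was highest without overlap, by 0.48 over TTP (counting SE 0.20) and 0.62 over TTP-AA (counting SE 0.18). With chromosome 3 centred on its median, TTP and TTP-AA differed from GFP by -0.29 and -0.52. Exons of Thbs3 overlap Mtx1 on the other strand. Sparc, a collagen-binding protein abundant in fibroblasts, had 12.4, 14.4 and 11.1 in GFP, 14.8, 17.1 and 13.3 in TTP and 17.2, 19.8 and 15.3 in TTP-AA. TTP-AA lay above GFP without overlap, by 0.47, with a counting SE of 0.29.

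The values of Lox, Timp1, Mmp8, Col5a1 and Lamb2 depend on the fit more than those of the other members. For these 5 members (11.6%) the fitted values averaged under 90% of the observed mean, as they did for 2.14% of listed genes. The median over members was 98.4%. Which libraries held the reads that the fit leaves out cannot be told from the files used here. The spread of differences over listed genes was widest at middle levels. For TTP-AA vs TTP their SD was 0.36 over the 1049 genes with an observed mean under 20, which hold 12 members, 0.64 over the 1388 genes between 100 and 300, which hold 8, and 0.27 over the 1642 genes at 5000 or more, which hold 5. For TTP vs GFP the SD under 20 was 0.23. That is smaller than the counting SE of each of the 12 members there, from 0.29 for Col9a3 to 0.45 for Col5a1. Fitted differences at these levels thus scattered less than counting error alone, and how far the fit narrowed them was not tested.

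**Figure D4:**
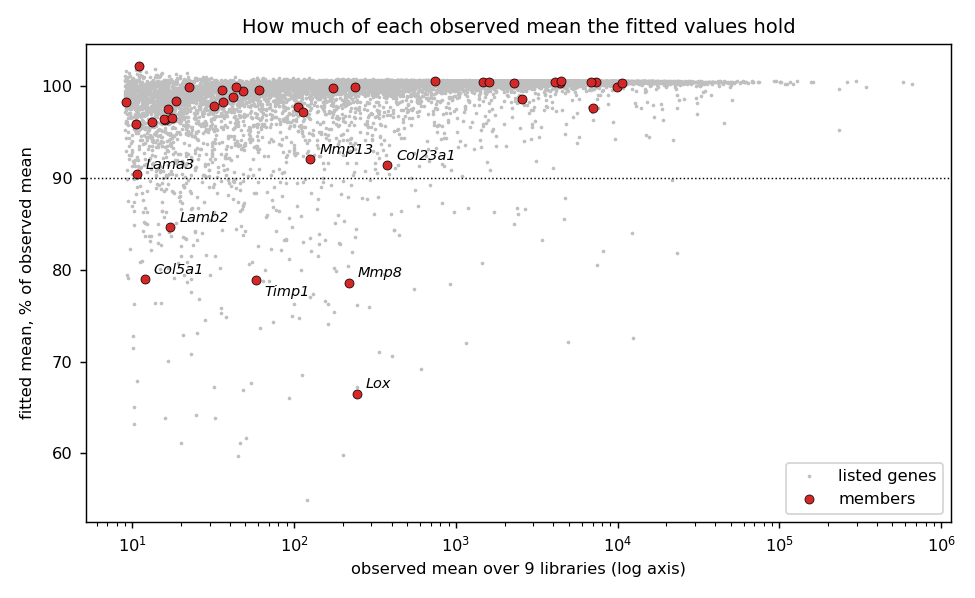
Mean of the fitted values as a percentage of the authors' observed mean over 9 libraries, against that observed mean (log axis), with grey points for the listed genes and red points for 42 of the 43 members. The dotted line marks 90%, and Lox at 66.5% is the lowest member.

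Genes of neighbouring functions were set beside the members. Of a matrix assembly list, mostly of enzymes that modify and fold collagen, 13 of the 18 genes with library values were listed. Only Tgm2, a transglutaminase that crosslinks matrix proteins, passed 1 in any comparison. Tgm2 had means of 6882 in GFP, 2691 in TTP and 10700 in TTP-AA, lower than GFP by 1.36 in TTP and higher than TTP by 1.99 in TTP-AA. Plod2, whose hydroxylated lysines are substrates of lysyl oxidase, was lower by 0.80 in TTP-AA than in TTP, at means of 838 and 1463. The collagen chaperone Serpinh1 was not listed, with fitted means of 0.13 in each group. The median of the list was 0.03 for TTP and 0.00 for TTP-AA against GFP, and -0.12 for TTP-AA against TTP.

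Of a matrix signalling and proteolysis list, 19 of 26 genes were listed, and 4 were higher by at least 1 in TTP-AA than in TTP with none lower, where 2.65% of listed genes were higher and 0.598% lower. Serpine2, an inhibitor of thrombin and urokinase, had means of 37.6 in GFP, 18.6 in TTP and 167 in TTP-AA, a difference of 3.17 between TTP-AA and TTP. Tgfbi, a TGF-beta-induced matrix protein, was higher by 1.97, the syndecan Sdc3 by 1.32 and Ltbp2, which binds fibrillin, by 1.16. Serpine2 was 2.15 above GFP in TTP-AA, and Serpine2 and Tgfbi were 1.02 and 1.11 below GFP in TTP. Plau, urokinase, was highest in TTP, by 0.51 over GFP. The list medians were -0.01 for TTP and 0.20 for TTP-AA against GFP, and 0.20 for TTP-AA against TTP.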

How the data were processed

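Groups and replicate numbers were taken from sample titles (3 libraries each of GFP, TTP and TTP-AA). Per the submitters' processing notes, reads were handled with Trim Galore, TopHat2 2.0.12 on GRCm38, HTSeq and DESeq2 1.6.3. The authors' deposited table of library values (signal, called normalized counts) holds 25494 genes. No value was 0, and the log2 matrix, centred both ways, had rank 4 where 8 is the limit. It was therefore read as fitted means of a model with replicate number and group, where the paper names library date and condition. The observed mean is the authors' value over 9 libraries. The deposited comparison tables also hold fold changes, standard errors, Wald statistics and p-values, which were not used, beyond the list of genes and their observed mean. In that list, 3 repeated identifiers were dropped.

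Library factors were medians of ratios over the 13205 listed genes, and differences were those of mean log2 values. The limma fit that was foreseen was not run, since fitted means leave no residual. Summed values stand in for depth, and counting standard errors from them cover counting error only. Genes named in full were members past 1 on the log2 scale, the 2 most abundant per exon length in each role, and every Timp and lysyl oxidase; other members are named after their values were seen, and 1 member enters the counts but is not reported here. The members and lists were chosen with earlier results of these data known. Positions, exon lengths and 3′UTRs came from GENCODE release 21 (13133 genes, 99.5%, matched), where exons of 18 members overlap another gene. TopHat placement can share reads between similar genes. Scripts were tested on simulated data and ran in Python 3.11.15, numpy 2.4.6, pandas 2.3.3 and matplotlib 3.10.9. Alternatives were other scalings, pseudocounts, a level filter, a lower threshold, chromosome centring, members without exon overlap and leaving out each replicate number.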

Additional observations from a re-analysis of the deposited data

Results flagged for a closer look

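In 4 members TTP and TTP-AA lay on opposite sides of GFP in all same-numbered library pairs and also differed from each other by at least 1 on the log2 scale, as did 2.8% of listed genes. Opposite sides alone were seen in 25 of 43 members (58.1%) and in 47.3% of listed genes. The difference of TTP-AA from TTP was 1.35 for Adam3, with -1.03 for TTP and 0.31 for TTP-AA against GFP. For Col23a1 it was -2.26, with 1.45 and -0.81 against GFP. For Col4a6 it was -1.07, with 0.47 and -0.60, and for Lamb2 it was -1.01, with 0.55 and -0.46. Since the values are fitted means and both changes share the GFP libraries, the agreement of the pairs follows from the fit, and the difference between the effects was not tested.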

How the results depend on the processing

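The count of members past 1 on the log2 scale for TTP-AA vs GFP, 2 in the report, was 1 with a pseudocount of 10, 10 with a threshold of 0.5 (23.3%, against 8.69% of listed genes) and 1 over the 25 members without exon overlap, where Lox is left out. The count for TTP-AA vs TTP, 6 in the report, was 15 with a threshold of 0.5 (34.9%, against 13.6% of listed genes). The counts for TTP vs GFP stayed at 2 to 4 around 3 (4 with a threshold of 0.5, against 5.17% of listed genes), and the other values kept their direction. For TTP-AA vs TTP the count was 5 with upper quartile scaling, with chromosome centring and with a pseudocount of 1, each time without Lamb2. Other library scalings moved no member by more than 0.025 and the median of listed genes by no more than that, and chromosome centring moved none by more than 0.19. Leaving out replicate number 1, 2 or 3 moved no member by more than 0.0062, which follows from the fit and says nothing about stability. A pseudocount of 10 moved single members by up to 1, which was Lox in TTP-AA vs GFP, and left 4 of the 6 members past 1 for TTP-AA vs TTP. No paired analysis was possible because the library values are fitted means in which the replicate number is already a term, so no test with or without a replicate block could be run. Counting error limits the 19 members with an observed mean under 50.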
